A study of Mus musculus with 4 samples.

Results

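Transcripts of 10 genes that mark type 1 conventional dendritic cells were followed through 4 sorted subsets of CD8 T cells. The genes were Xcr1, Clec9a, Batf3, Wdfy4, Cadm1, Flt3, Itgax, Zbtb46, Tlr3 and Naaa, taken by name out of 22911 genes that the array probes could be assigned to. All 10 were represented, by 15 probes that read 1 spot each. The cells came from the spleen and the lymph nodes of C57BL/6 mice that had no treatment and were 1 to 3 months old. Their genotype was PD-1-/- in every subset, so that the data hold no PD-1-sufficient control. The subset under study, P4, was CD44low CD62Llow. The effector memory phenotype, CD44 high CD62Llow, was sorted as P3. The central memory phenotype, CD44high CD62Lhigh, was P2, and the naive phenotype, CD44low CD62Lhigh, was P1. CD44 is an adhesion receptor that T cells carry at higher density after meeting antigen, and CD62L is a homing receptor for lymph nodes. Each subset was measured on 1 single-colour array, all 4 on 1 slide, so there is no replicate check and no test between subsets. The place of an array on the slide and its subset cannot be told apart. The sources used here do not give the number of mice behind a sort, nor gates other than CD8, CD44 and CD62L.

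Type 1 conventional dendritic cells are antigen-presenting cells that take up material of dying cells and present it to CD8 T cells, a process called cross-presentation. Their development depends on the transcription factors BATF3 and IRF8 and on the growth factor receptor FLT3. In mouse spleen many of them carry the CD8 alpha chain, and they lack the T cell receptor. Of the 10 genes, some are close to restricted to these cells, such as Xcr1 and Clec9a, whereas others are shared: Itgax, which encodes CD11c, is also made by activated CD8 T cells, and Wdfy4 by B cells.

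Every one of the 10 genes gave its highest signal on the P3 array, and in P4 the genes most restricted to type 1 dendritic cells gave no signal well above background. At least 1 probe was well above background for 5 of the 10 genes in P4 (Wdfy4, Flt3, Itgax, Zbtb46 and Naaa), for all 10 in P3, for 6 in P2 (the 5 of P4 and Cadm1) and for 2 in P1 (Wdfy4 and Naaa). Over all 22911 genes that share was 55.8% in P4, 60.2% in P3, 54.5% in P2 and 54.4% in P1. Xcr1, Clec9a, Batf3 and Tlr3 were well above background on the P3 array and on no other, a pattern found in 4.12% of all genes. In a sorted population, fewer cells of a type and less RNA per cell cannot be told apart.

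Levels are given as log2 of the processed signal relative to the 75th percentile of the same array over its 56605 probes, which was a processed signal of 315 in P4, 550 in P3, 332 in P2 and 333 in P1. They compare 1 probe across arrays and not 1 probe with another. Processed signals are quoted before this scaling, and all fold differences were taken after it. The lowest level that counted as well above background was -4.30 in P4, -4.82 in P3, -4.05 in P2 and -4.14 in P1. A difference against an array on which a probe was not well above background is a bound, computed against that lowest level or the probe's own level where higher, and is written as "at least". Repeated spots of other probes gave a log2 difference a 95% half-width of 0.18 at levels of 0 or more, 0.37 at levels between -3 and 0 and 0.63 below -3. These widths cover spot noise within an array and nothing between mice, sorts or labelling reactions.

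**Figure D1:**
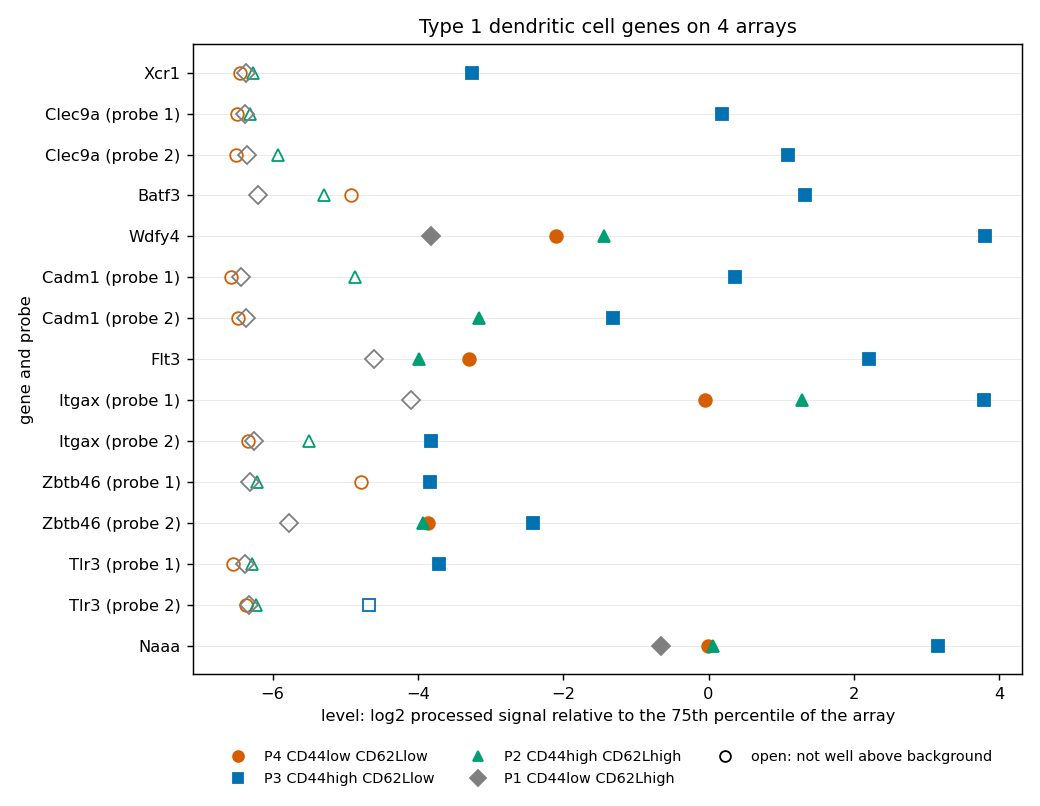
Level of each of the 15 probes (rows) on the 4 arrays, as log2 processed signal relative to the 75th percentile of the array; filled symbols are well above background and open symbols are not. P3 lies to the right of every other array for each probe, and for Xcr1, Clec9a, Batf3 and Tlr3 the symbols of P4, P2 and P1 are all open.

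The receptors by which type 1 dendritic cells meet other cells were examined first. Xcr1 encodes the receptor for the chemokine XCL1, which activated CD8 T cells and natural killer cells release. Its probe had processed signals of 3.61 in P4, 57.6 in P3, 4.31 in P2 and 4.05 in P1. Only the P3 signal was well above background, and it was dim: P4 was at least 2.06-fold lower than P3 (log2 difference -1.04, but -0.16 with another background correction, normexp), and P3 was at least 1.74-fold higher than P2 and at least 1.84-fold higher than P1. Clec9a encodes a lectin receptor that binds actin filaments exposed on dead cells. Its brighter probe had signals of 3.49 in P4, 1169 in P3, 5.45 in P2 and 4.06 in P1, and the second probe had 3.52 in P4, 625 in P3, 4.2 in P2 and 4.02 in P1. Both probes thus showed signal in P3 alone. By the brighter one P4 was at least 41.7-fold lower than P3 (log2 difference -5.38, and -3.41 with normexp background correction, an alternative to the deposited background subtraction), and P3 was at least 35.3-fold higher than P2 and 37.4-fold higher than P1, both as bounds. Normexp was used with an offset of 50 added to every signal, which by arithmetic draws dim signals together.

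Cadm1 encodes an adhesion molecule that binds CRTAM on activated T cells, and its probes disagreed about P2. The first had signals of 3.31 in P4, 711 in P3, 11.5 in P2 and 3.84 in P1, well above background in P3 alone. The second, which represents the gene because its mean level was slightly higher, had 3.55 in P4, 222 in P3, 37.3 in P2 and 4.04 in P1, well above background in P3 and P2. On the P2 array its spot sat among neighbours that were raised as well (a bright area), and so did its spot on the P1 array. No other probe measured a Cadm1 signal in P2. By the second probe P4 was at least 7.91-fold lower than P3, and the P3 minus P2 difference of 1.84 on the log2 scale (3.59-fold) was 4.42 as a bound by the first.

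Tlr3 encodes an endosomal receptor for double-stranded RNA. The probe that represents it had signals of 3.37 in P4, 42.1 in P3, 4.27 in P2 and 4.01 in P1, and the other probe was not well above background on any array. The bounds were small, with P4 at least 1.5-fold lower than P3, so Tlr3 was the 1 member that did not reach 2-fold in that pair.

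Batf3 and Zbtb46 are the transcription factor genes of the list. Batf3 had signals of 10.4 in P4, 1379 in P3, 8.52 in P2 and 4.54 in P1. Only P3 was well above background, and P4 was at least 49.2-fold lower than P3, a log2 difference of -5.62 that was -3.44 with normexp background correction. Zbtb46, which marks conventional dendritic cells of both types, had signals of 21.7 in P4, 103 in P3, 21.8 in P2 and 6.09 in P1, and only the last was not well above background. P4 minus P3 was -1.44 (2.71-fold lower in P4), but -0.32 with normexp, while P4 minus P2 was 0.070, within spot noise. The other Zbtb46 probe was well above background in P3 alone, with a signal of 38.6 there against 11.5 in P4, 4.5 in P2 and 4.22 in P1.

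Promoter sequence of the members was taken from RefSeq (GRCm38.p6) as the 250 bases before the annotated start of each gene, for the 9 members listed there; Cadm1 was not among them. BATF3 and IRF8 are known to bind composite sites, in which an AP-1 motif stands next to part of an interferon response motif, and the windows were searched for such letters on both strands. The AP-1 motif TGANTCA was found in 2 of the 9 promoters, those of Itgax and Zbtb46, against 6.75% of 32851 promoters of the same length. The adjoining composite, GAAA directly before TGANTCA, was found in that of Zbtb46, against 0.1% of promoters. It lay between 61 and 51 bases before the start, on the opposite strand, and overlaps the AP-1 match. The interferon response motif, GAAA repeated after any 2 bases (2.98% of promoters), the spaced composite, TTTC and TGANTCA with any 4 bases between them (0.0974%), and the PU.1 motif GAGGAAGT (2.44%) were in none of the 9 windows, which says only that these letters are not there. The promoters with a match are shown with the matched bases in capitals, and that of Clec9a, whose signal was seen in P3 alone, is shown beside them for comparison.
Zbtb46, chr2:181424389-181424638, minus strand: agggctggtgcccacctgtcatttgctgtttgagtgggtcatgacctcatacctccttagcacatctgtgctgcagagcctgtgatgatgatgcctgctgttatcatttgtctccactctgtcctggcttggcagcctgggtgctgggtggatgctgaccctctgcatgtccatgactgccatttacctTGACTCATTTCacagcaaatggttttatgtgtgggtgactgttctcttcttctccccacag
Itgax, chr7:128129300-128129549, plus strand: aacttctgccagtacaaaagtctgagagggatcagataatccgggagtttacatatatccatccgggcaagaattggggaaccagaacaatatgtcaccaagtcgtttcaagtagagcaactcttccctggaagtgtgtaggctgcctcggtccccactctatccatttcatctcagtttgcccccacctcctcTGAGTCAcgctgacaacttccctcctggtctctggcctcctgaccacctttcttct
Clec9a, chr6:129408612-129408861, plus strand: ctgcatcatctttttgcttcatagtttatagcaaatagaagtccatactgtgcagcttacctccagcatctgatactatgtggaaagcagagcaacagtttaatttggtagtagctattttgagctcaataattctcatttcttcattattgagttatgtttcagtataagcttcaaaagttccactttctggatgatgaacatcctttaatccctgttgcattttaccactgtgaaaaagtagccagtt
A match of letters is a description of the window and says nothing of binding in these cells.

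Flt3 and Itgax encode surface proteins of dendritic cells in general. FLT3 is the receptor for the growth factor that expands them. Flt3 had signals of 32.1 in P4, 2548 in P3, 20.9 in P2 and 13.7 in P1, and the P1 signal was not well above background. P4 was 45.5-fold lower than P3 (log2 difference -5.51, and -4.14 with normexp). P4 minus P2 was 0.69, just over the half-width of 0.63, but 0.3 with normexp, inside it. Itgax had signals of 305 in P4, 7582 in P3, 811 in P2 and 19.6 in P1, again with P1 not well above background. Compared with P1, P4 was at least 16.5-fold higher, P3 at least 235-fold and P2 at least 41.5-fold. These sizes depend on the processing: the log2 difference of P4 minus P1 was 4.04 as reported, 2.07 with normexp background correction and 1.94 with the mean over both probes. For P3 minus P1 the values were 7.87, 5.79 and 4.09 in the same order, and for P2 minus P1 they were 5.38, 3.38 and 2.73. P4 was 14.2-fold lower than P3 and 2.52-fold lower than P2, with log2 differences of -3.83 and -1.33, against -2.15 and -0.79 with the mean over both probes. The second Itgax probe was dim, with a signal of 38.8 in P3 and none well above background on the other arrays, and so does not check the P4 and P2 levels.

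Wdfy4 and Naaa were the members well above background on all 4 arrays. WDFY4 is needed for cross-presentation of antigen from other cells. Its transcript had signals of 73.9 in P4, 7667 in P3, 123 in P2 and 23.6 in P1. The order was P3, P2, P4, P1, and each step was larger than the spot noise: P4 minus P3 was -5.89 (59.4-fold lower in P4), P4 minus P2 was -0.66 and P4 minus P1 was 1.73 (3.31-fold higher in P4). With normexp these differences were -5.01 for P4 minus P3 and 0.75, under 2-fold, for P4 minus P1. P4 minus P2 was then -0.33, inside the half-width of 0.37. The step between P2 and P4 thus did not pass spot noise under that setting, whose offset draws dim signals together. Naaa encodes a lysosomal hydrolase of lipid amides. It had signals of 312 in P4, 4898 in P3, 346 in P2 and 211 in P1. P4 minus P3 was -3.17 (8.98-fold lower in P4), P4 minus P2 was -0.070, within spot noise, and P4 minus P1 was 0.65 with a half-width of 0.37.

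**Figure D2:**
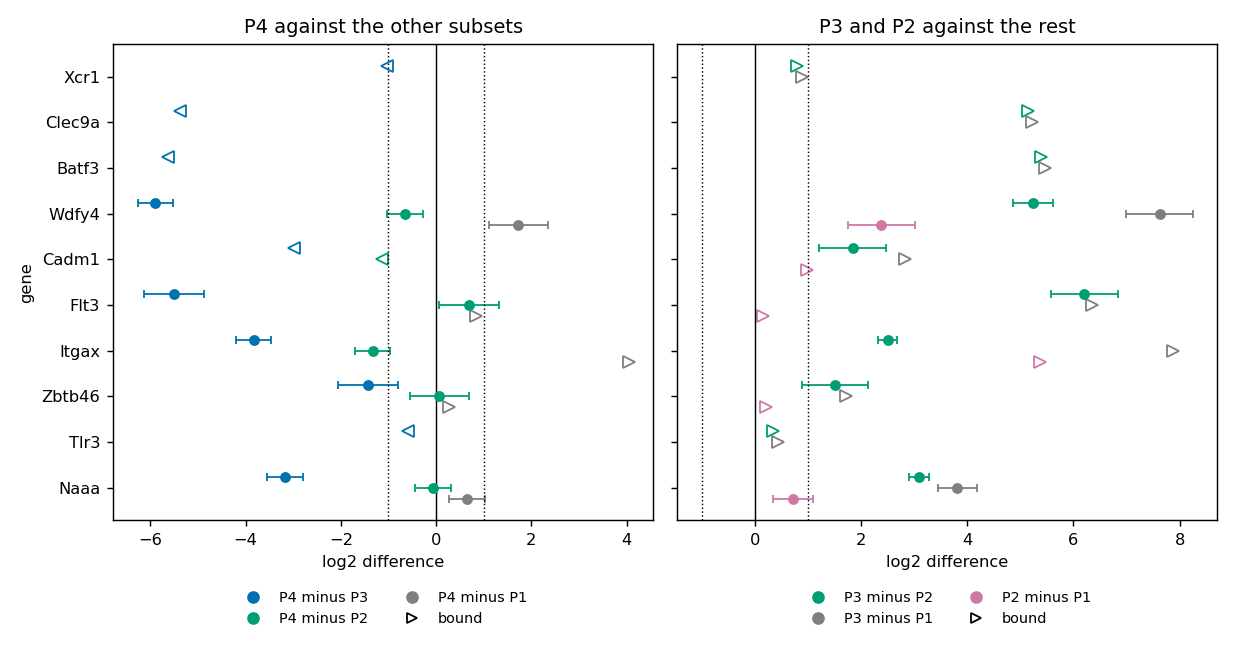
Log2 difference of each of the 10 genes for the pairs with P4 (left) and for the remaining pairs (right). Filled circles are measured on both arrays, with bars for the 95% half-width of spot noise; open triangles are bounds and point the way in which the true difference may be larger. Dotted lines mark 2-fold. All P4 minus P3 values lie left of 0, and those of Tlr3 and Xcr1 lie close to the 2-fold line.

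Counted together, 9 of the 10 genes were lower in P4 than in P3 by 2-fold or more and 0 were higher, against 9.07% and 3.98% of 13990 genes measured in that pair. Their median difference was -3.50, against 0.00 over all genes, and -3.83 over the 5 members well above background on both arrays. The other 5 entered the pair through P3 alone and so could only be lower in P4. The 5 measured on both arrays spread widely, -5.89 for Wdfy4 being the lowest value and -1.44 for Zbtb46 the highest, further apart than spot noise. In P4 against P2, 6 members were measured, 2 were lower by 2-fold or more (Itgax and, with its spot in a bright area, Cadm1) and 0 higher, against 3.45% and 4.78% of 13125 genes. Cadm1 entered this pair through P2 alone. In P4 against P1, 5 were measured, and 2 of them, Itgax and Wdfy4, were at least 2-fold higher and 0 lower, against 5.43% and 1.77% of 13160 genes. Flt3, Itgax and Zbtb46 entered through P4 alone and could only be higher there, and only Wdfy4 and Naaa were measured on both arrays. Members not well above background on either array of a pair gave no difference, so these counts cover only those that could be measured.

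Among the other subsets, 8 of 10 members had 2-fold or more signal in P3 relative to P2 and 0 were lower, against 10.6% and 5.61% of 14012 genes, and the 2 that did not pass were Xcr1 and Tlr3. Xcr1, Clec9a, Batf3 and Tlr3 entered this pair through P3 alone and could only be higher there. The same counts, 8 higher and 0 lower, held for P3 against P1, where the shares over 14089 genes were 12.5% and 6.98%. There only Wdfy4 and Naaa were measured on both arrays, and the direction of the other 8 was fixed in the same way. The P3 minus P1 differences included 7.62 for Wdfy4 (197-fold), 3.81 for Naaa (14.1-fold) and, as a bound, 6.35 for Flt3. In P2 against P1, 6 members were measured and 2 were at least 2-fold higher, Itgax and Wdfy4 (5.22-fold), against 4.76% of 12954 genes. None of the 6 was lower, against 2.52%, and only Wdfy4 and Naaa could have been. The pairs with P3 share the P3 array, so their counts are not separate observations.

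Further genes linked to type 1 dendritic cells followed the same direction less uniformly. Of 24 such genes on the array, 22 were measured in P4 against P3. Of these, 14 were lower in P4 by 2-fold or more and 1 was higher, against 9.07% and 3.98% of 13990 genes. Cd36, Gcsam, Tlr11, Clnk, Fkbp1b, Pdia5 and Slamf8, all among the 14, entered the pair through P3 alone and could only be lower in P4. The median over the 22 was -1.69, and -0.96 over the 15 genes well above background on both arrays. Ifi205, an interferon-induced gene, had levels of -2.51 in P4, 1.09 in P3, -2.50 in P2 and -3.01 in P1, so that P4 was 12.0-fold lower than P3 and close to P2. Plpp1, a lipid phosphatase gene, was 9.96-fold lower in P4 than in P3, and Rab7b, a gene of vesicle traffic, 3.42-fold. The 1 gene higher in P4 was Itgae, which encodes the integrin CD103 and is made by CD8 T cells as well: its levels were 4.06 in P4, 3.03 in P3, 0.62 in P2 and 4.05 in P1. Irf8, the partner of Batf3, had levels of 3.18 in P4, 4.90 in P3, 2.21 in P2 and 1.17 in P1, the last from a spot in a bright area. Unlike Batf3 it was well above background on every array, with P4 3.31-fold lower than P3 and 4.02-fold higher than P1. Against P1, 15 of these genes were measured in P4, of which 2 were higher (Irf8 and Cd24a, 2.20-fold) and 1 lower (Rab7b, 2.33-fold), with a median of 0.086. The shares over all 13160 genes of that pair were 5.43% and 1.77%. Against P2, 16 were measured in P4, with 3 higher, 2 lower and a median of -0.0008. There the shares over 13125 genes were 4.78% and 3.45%.

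Genes whose products pair with the members on the T cell side were followed as well. Xcl1, which encodes the ligand of XCR1, had levels of 3.78 in P4, 4.06 in P3, 3.29 in P2 and -1.89 in P1. P4 thus exceeded P1 50.9-fold, P2 1.4-fold and was 1.22-fold below P3, whereas Xcr1 was above background in P3 alone. Flt3l, the gene of the FLT3 ligand, differed little, with levels of 3.91 in P4, 4.18 in P3, 3.77 in P2 and 4.12 in P1. Crtam, the gene of the CADM1 receptor, had levels of 3.82 in P4, 4.26 in P3, 3.73 in P2 and 2.97 in P1, which put P4 1.80-fold above P1. Among products of dendritic cells that act on T cells, Cxcl9, a chemokine gene, was well above background in P3 alone, with P4 at least 37.0-fold lower. It and Il12b, a subunit gene of interleukin 12 (P4 at least 6.41-fold lower than P3), were named after their values were seen. Il12a, the other subunit gene and also in the list, was well above background on no array. Cxcl16, which attracts activated T cells, was 12.3-fold lower in P4 than in P3. In this list of 19 partner genes, 18 were measured between P4 and P3, with 6 lower in P4 by 2-fold or more and 0 higher. The shares over 13990 genes were 9.07% and 3.98%. The 6 were Irf8, Il12b, Cxcl9, Cxcl10, Cxcl16 and Itgb1. Of these, Il12b and Cxcl9 entered through P3 alone and could only be lower, and Irf8 and Il12b are counted in another list as well. The median was -0.50, and -0.39 over the 14 genes well above background on both arrays.

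Markers of the sorted cells and of other cell types were compared to place these differences. All 15 T cell genes were well above background on all 4 arrays, and none was 2-fold apart in any pair, with a median of 0.11 for P4 minus P3. Class II presentation genes were lower in P4 along with the members: 7 of 10 passed 2-fold relative to P3 and 0 were higher, against 9.07% and 3.98% of 13990 genes. Their median was -4.38, led by H2-Aa (56.9-fold), H2-Ab1 (34.9-fold), Cd74 (28.7-fold) and H2-Eb1 (24.3-fold). Against P1, 9 class II genes were measured and 4 were higher in P4, against 5.43% of 13160 genes. Among the 4 were H2-Eb1 by 5.18-fold and H2-Ab1 by 3.79-fold. P2 also exceeded P1, by 4.3-fold for H2-Eb1 and 3.24-fold for H2-Ab1. Between P4 and P2, 9 class II genes were measured and 0 were 2-fold apart, with a median of 0.27. Over all 13125 genes of that pair, 4.78% were higher in P4 and 3.45% lower. H2-DMa, H2-Oa and H2-Ob were lower in P4 than in P1 by less than 2-fold. P4 and P2 thus both had H2-Eb1 and H2-Ab1 above P1, while Xcr1, Clec9a and Batf3 were not well above background in P4, P2 or P1.

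Other lists of antigen-presenting cells were mixed between P4 and P3. Over all 13990 genes measured in this pair, 9.07% were lower in P4 by 2-fold or more and 3.98% higher. Genes well above background in P3 alone could only be lower in P4. Each median is therefore followed by that over genes well above background on both arrays. The examples given with a value belong to these genes as well. Type 2 dendritic cell genes had 7 of 14 measured members lower and a median of -1.23 (-0.26 over 10 genes), with Cd209d at 56.7-fold and Clec12a at 12.8-fold. Mature dendritic cell genes had 7 of 12 lower, 1 higher (Ccr7, 2.33-fold) and a median of -2.28 (-0.58 over 9 genes), with Cacnb3 at 23.4-fold and Socs2 at 17.9-fold. Plasmacytoid dendritic cell genes had 7 of 14 lower, 2 higher (Ccr9, 5.44-fold, and Siglech, 2.42-fold) and a median of -1.29 (-0.54 over 13 genes), with Cox6a2 at 45.3-fold lower and Spib at 31.0-fold lower. The genes higher in P4 than in P3 were not raised over P1, with P4 minus P1 at -0.66 for Ccr7, 0.014 for Ccr9 and 0.031 for Siglech. P4 minus P2 was -0.12 for Ccr7, 5.04 for Ccr9 and -0.15 for Siglech. Macrophage and monocyte genes had 9 of 13 lower and a median of -1.67 (-0.055 over 5 genes). Of those 5, Cd68 (2.78-fold) and Cd14 (2.51-fold) were lower in P4, Itgam differed by -0.055, and Csf1r and Csf3r were 1.44-fold and 1.33-fold higher in P4. B cell genes had 5 of 9 lower and a median of -1.81 (-3.23 over 6 genes), with Blnk at 43.0-fold and Ms4a1 at 18.9-fold. The list was not uniform: Cd79b and Bank1 were lower in P4 by only 1.36-fold and 1.47-fold. Cd79a and Ebf1 entered through P3 alone, with bounds under 2-fold, and Pax5 and Blk were well above background on no array. Genes of natural killer cells, which overlap with those of cytotoxic T cells, had 5 of 9 lower and a median of -1.24, all 9 being above background on both arrays, with Tyrobp at 22.3-fold and Klrk1 at 18.3-fold. Eomes (-0.49), Prf1 (-0.58), Gzma (0.10) and Cd244a (0.25) were less than 2-fold apart. Ncr1, Klrb1b and Khdc1a were well above background on no array. Several of these lists hold genes that T cells make, such as S100a4 and Tbx21, and their part in the differences of the members was not tested.

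Summed linear levels relative to the 75th percentile did not run the same way for all lists. Each sum adds different probes, also those not well above background, so its brightest probes weigh most. The sum over the 10 members was 2.44 in P4, 46.7 in P3, 4.16 in P2 and 0.884 in P1. Its largest terms in P3 were Wdfy4, Itgax and Naaa, at levels of 3.80, 3.78 and 3.15. Class II genes above background numbered 9 of 10 in P4, 10 in P3, 9 in P2 and 8 in P1, and summed to 22.9 in P4, 321 in P3, 19.6 in P2 and 21.0 in P1. B cell genes above background numbered 6 of 11 in P4, 9 in P3, 4 in P2 and 3 in P1, and summed to 6.91 in P4, 15.6 in P3, 6.83 in P2 and 7.97 in P1. For macrophages these numbers were 5 of 15 in P4, 13 in P3, 7 in P2 and 5 in P1. Csf1r, Cd68, Cd14, Itgam and Csf3r were above background on all 4 arrays, and C1qb and Fcgr3 in P3 and P2. Those above background in P3 alone included Adgre1, Lyz2, C1qa, C1qc and Vcam1, and Mertk and Fcgr1 were above it on none. The macrophage and monocyte sum was 234 in P4, 194 in P3, 244 in P2 and 244 in P1, to which Csf3r gave the most. The sum was also higher in P4 than in P3 for mature dendritic cell genes, at 169 in P4 and 102 in P3, and for plasmacytoid dendritic cell genes, at 181 in P4 and 147 in P3. Ccr7 was the largest term of the mature list on both arrays, with levels of 7.15 in P4 and 5.93 in P3. Of the plasmacytoid list, Siglech was the largest term in P4, at 6.15 against 4.88 in P3. Type 2 dendritic cell genes above background numbered 10 of 15 in P4, 14 in P3, 10 in P2 and 10 in P1, with sums of 478 in P4, 700.4 in P3, 465 in P2 and 462 in P1. The largest term of that list in P3 was S100a4, a gene that T cells make, with a level of 7.98 against 4.77 in P4. Cd209a and Clec10a were above background in P3 alone. T cell genes summed to 1636 in P4, 1455 in P3, 1654 in P2 and 1822 in P1.

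**Figure D3:**
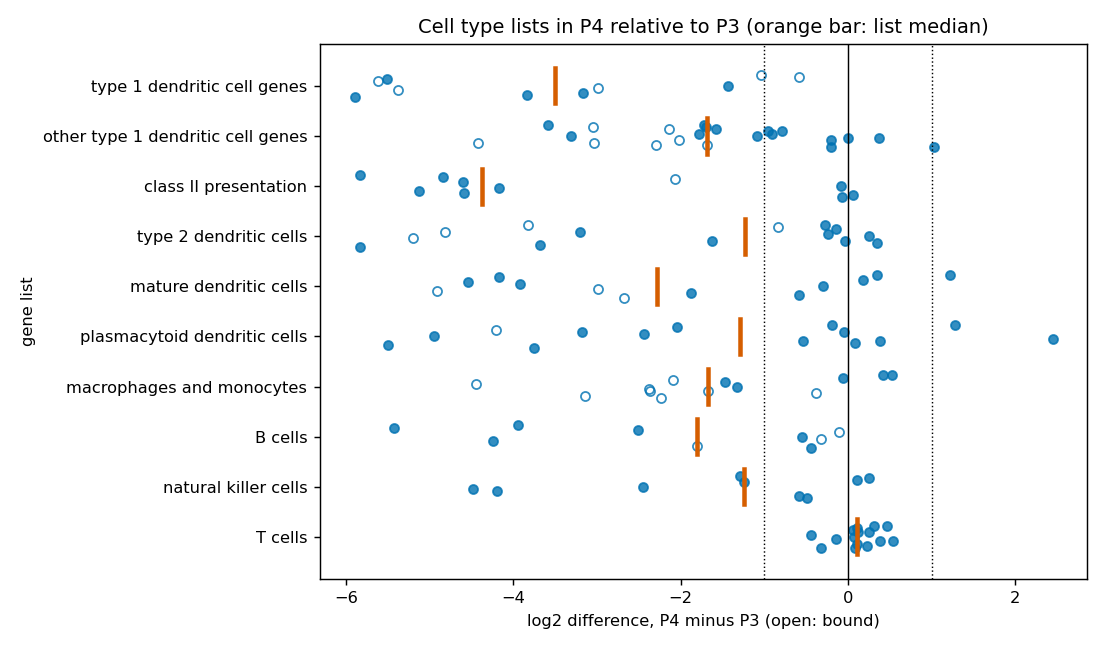
Log2 difference of P4 minus P3 for every measured gene of 10 lists (rows); filled circles are measured on both arrays, open circles are bounds, orange bars are list medians and dotted lines mark 2-fold. The median is -3.50 for the 10 type 1 dendritic cell genes, -4.38 for class II presentation and 0.11 for T cells, whose points all lie inside the 2-fold lines.

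Genes with the profile nearest to the median of Wdfy4 and Naaa were sought among 11833 genes well above background on all arrays. The other members took no part in that profile. The measure was the Euclidean distance over the 4 arrays between mean-centred log2 levels, against the median profile of Wdfy4 and Naaa, the 2 members above background throughout. The nearest was Ly86 (distance 0.477), which encodes a partner of a Toll-like receptor homologue on B cells and dendritic cells. It had levels of -2.21 in P4, 2.94 in P3, -1.68 in P2 and -3.32 in P1. The next were Hba-a2 (0.662), Cpne7 (0.698), Cox6a2 (0.759), Hba-a1 (0.786) and Ccnd1 (0.820). The median distance over all genes was 4.41, which is given for scale only, because the named genes were picked as the nearest. Hba-a1 and Hba-a2 are near-identical globin genes of red blood cells whose probes can share targets, Cox6a2 is a marker of plasmacytoid dendritic cells and Ccnd1 encodes cyclin D1. The Hba-a1 spot lay in a bright area of the P3 array and the Ccnd1 spot in one of the P4 array.

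**Figure D4:**
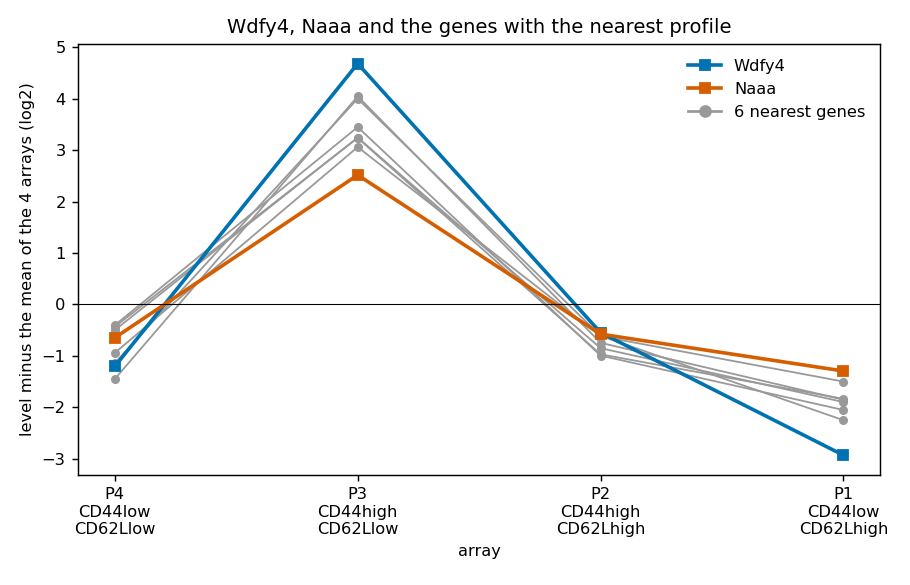
Mean-centred log2 level of Wdfy4, Naaa and the 6 genes nearest to their median profile (grey) on the 4 arrays; lines join the arrays of 1 gene and show no order in time. All 8 genes peak on the P3 array and are lowest on the P1 array.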

How the data were processed

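RNA of each subset was labelled with Cy3, per the labels. The deposited intensity values are spot signals, background-subtracted and not normalized between arrays, from Agilent Feature Extraction 11.0.1.1, per the submitters' processing notes. The authors' deposited log2 table holds 26188 probes. All 4 columns have the median 8.85 and, once sorted, differ by at most 0.000619, so it was read as quantile normalized; the sources used here do not say how it was made.

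Flagged outlier spots (122 to 152 an array) were dropped; none was saturated. Processed signals were taken as log2 relative to the array's 75th percentile over probes. RefSeq accessions gave 32994 of 56605 probes (58.3%) a symbol, from a table on GRCm38.p6. The arrays' headers name another build, so no gene positions are given, and promoter windows carry their own table's coordinates. The probe with the highest mean stood for a gene. Pairs took genes detected on 1 array or both, and differences were counted by size, with no test. The counting was tested on simulated data. A bright area is a spot with at least 3 raised neighbours (4 in P3) within 32 position units, raised being 2-fold over that spot on all the other arrays.

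Named were all members, up to 4 genes of each list with the largest P4 minus P3 difference among those above background on both arrays, Xcl1, Flt3l, Crtam and the 6 nearest profiles; other list genes were named after their values were seen. Members, lists and rules were chosen with earlier results of these data known. Python 3.11.15, numpy 2.4.6, pandas 2.3.3, scipy 1.17.1, matplotlib 3.10.9, R 4.3.3 and limma 3.58.1 were used.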

Additional observations from a re-analysis of the deposited data

How the results depend on the processing

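Under 10 alternatives, no member difference or median of 2-fold or more turned its direction. Bounds could turn only with dim values used as given, because elsewhere the detection filter fixed their direction. Of 411 recomputed values, 77 moved beyond spot noise. The 4-fold threshold bears on counts alone and gave none of the 411. The alternatives were quantile normalization, centring on probes detected on every array, normexp on median signals (offset 50), detection on both arrays of a pair, dim values used as given, probe means, outlier spots kept, the authors' values, bright areas left out and a 4-fold threshold. The authors' values hold 2 members, Wdfy4 and Naaa, and detection on both arrays leaves fewer members. Normexp adds its offset of 50 to every signal, which shrinks differences between dim signals by arithmetic. How much of the change under normexp comes from the offset was not tested, nor was the cause for the other settings.

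The 9 members lower in P4 than in P3 became 5 of 5 with detection on both arrays and 2 of 2 in the authors' values. With normexp 7 of 10 were lower, with Xcr1 at -0.16 and Zbtb46 at -0.32. Normexp also brought the log2 differences of P4 minus P3 closer to 0 for Clec9a (-3.41), Batf3 (-3.44), Flt3 (-4.14) and Wdfy4 (-5.01), and that of P4 minus P1 for Itgax (2.07) and Wdfy4 (0.75). The 2 lower in P4 than in P2 became 1 with normexp, 1 with detection on both arrays, 1 without bright areas, 0 with probe means, 0 in the authors' values and 0 at 4-fold. The 2 higher in P4 than in P1 became 1 with normexp, 1 with detection on both arrays, 1 in the authors' values, 1 at 4-fold and 5 with dim values as given. The 8 higher in P3 than in P2 became 2 of 2 in the authors' values. The 8 higher in P3 than in P1 became 2 of 2 there and 2 of 2 with detection on both arrays. The 2 higher in P2 than in P1 became 1 in the authors' values, 1 with detection on both arrays and 4 with dim values as given. The other 101 of 120 counts equalled the reported one or stayed within 1.5 times of it. Every reported count of 0 is among them and stayed 0 under each alternative. Members that entered a pair through 1 array could not add to these counts, except with dim values as given, so the 101 overstate stability.

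No paired analysis was possible because each subset has 1 array. Signals of Xcr1, Tlr3 and Zbtb46 lie near background, which limits their differences.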
